A study of Mus musculus with 8 samples.

Results

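Gene expression after knockdown of heterochromatin factors was compared with control by setting the mean of 2 knockdown groups against the control mean, and the genes that moved the same way in both groups are described here. The cells were mouse pre-iPSCs, which are partly reprogrammed cells arrested on the way to an induced pluripotent state, kept in embryonic stem cell medium and treated with siRNA for 3 days. The control group (3 arrays) received siRNA against luciferase, the 3XHMT group (2 arrays) siRNA against Ehmt1, Ehmt2 and Setdb1 together, and the Cbx3 group (3 arrays) siRNA against Cbx3. All 8 arrays of the series entered the comparison, in which each knockdown group had the same weight. It covered 18193 genes, each read by the probe set of that gene alone with the highest mean over all arrays. Of these, 10 genes passed the test in the pooled comparison and all 10 had the same sign in both knockdowns. The pooled test favours a shared sign, since it averages 2 differences that use the same control arrays. In 4 of the 10, the differences of both single knockdowns passed. How the pre-iPSC line was derived is not given in the sources used here, and the replicates are labelled biological with no word on what was grown or treated anew, so p-values measure the spread between these samples, which may be technical.

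Methylation of lysine 9 on histone H3 marks heterochromatin, the compact and mostly silent part of the genome. Ehmt1 and Ehmt2 form the complex that places its dimethyl form in euchromatin, and Setdb1 places the trimethyl form, often where KRAB zinc finger proteins and Trim28 recruit it to retroelements. Cbx3 encodes HP1 gamma, a protein that binds the methylated lysine through its chromodomain, so the groups target the writers of the mark and a reader of it. In reprogramming, this mark is known as a barrier at genes of the pluripotency network.

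Values are log2 signals, so a difference of 1 is a doubling, and the median of all probe sets was 5.89, a level near which a probe set often reads little above background. Markers of pluripotent cells were uneven in the control cells. Nanog (control mean 5.13) and Dppa4 (5.52) lay below the median of all probe sets, while Zfp42 was at 7.03 and Nr0b1 at 9.71. Pou5f1, the octamer-binding factor of pluripotent cells, had a control mean of 12.99 ± 0.34 (SD, n = 3), and Epcam, an epithelial surface protein, of 11.17 ± 0.53 (SD, n = 3). Thy1, a fibroblast surface protein, stood at 5.50 ± 0.20 (SD, n = 3), but other mesenchymal genes were brighter, with Cdh2, the adhesion protein N-cadherin, at 9.66 ± 0.19 (SD, n = 3). Ptprc, the leukocyte antigen CD45, had a control mean of 3.39. Of 34 measured macrophage and blood markers, 20 lay below the median of all probe sets on every array. The others did not, and some were bright, with control means of 9.1 for Laptm5, 7.67 for Cd14 and 7.55 for Cd68. Since each value is for bulk RNA, fewer cells with a transcript and less transcript per cell cannot be told apart.

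In the pooled comparison, 8 genes were higher and 2 lower at a limma adjusted p under 0.05, which is 0.0550% of the genes tested (0.0440% higher and 0.0110% lower). Nanog, Ptgs2, Defb1, Klk1b16, Alox15, Klk1b27, Aass and Mgat4c were higher, and Tbx18 and Ereg were lower. In 8 of the 10 (0.0440% of the genes tested), all 5 knockdown arrays lay beyond all 3 control arrays; the exceptions were Aass and Mgat4c. Such separation without the test was more common, at 588 genes (3.23%), with 339 higher (1.86%) and 249 lower (1.37%). In 8 of the 10 genes the control mean lay below the median of all probe sets, so most of the called genes were dim in control cells. The calls rest on few arrays: without control 1, and likewise without control 2, 0 genes passed, while 880 and 1169 genes had an unadjusted p under 0.05 against 1012 (5.56%) with all arrays, 517 higher (2.84%) and 495 lower (2.72%). Without 3XHMT 1 there was 1 call, without 3XHMT 2 or Cbx3 3 there were 5, without control 3 or Cbx3 2 there were 6, and without Cbx3 1 there were 11. Of the 8 omissions, 6 ended the call of Nanog, Defb1, Alox15 and Klk1b27, 5 that of Aass and 3 that of Tbx18 and Mgat4c, with adjusted p of at most 0.169 and no change of direction.

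**Figure D1:**
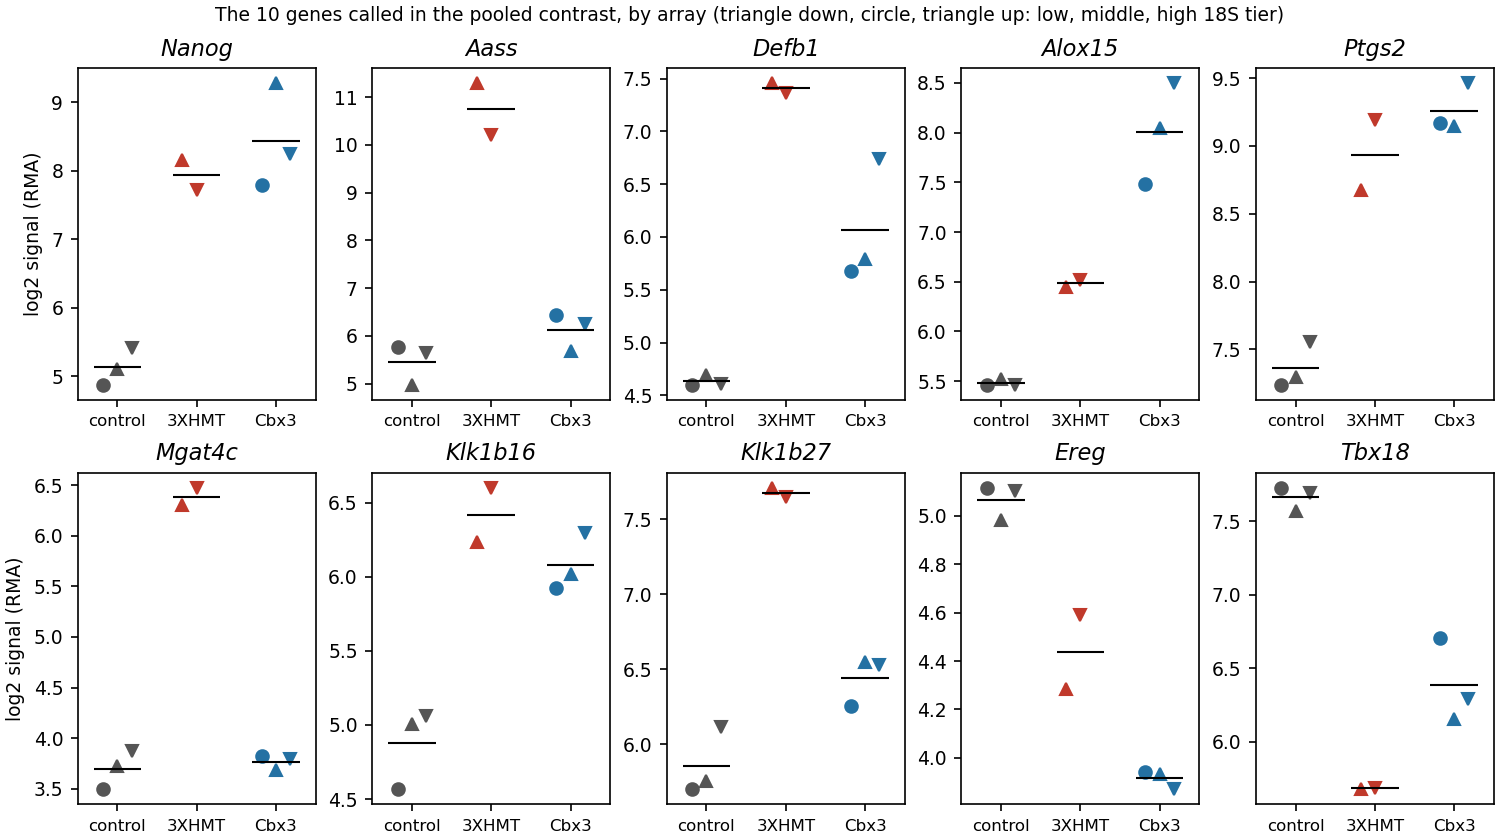
Log2 signal of the 10 called genes on each array, with a panel per gene, the group on the horizontal axis and a bar at each group mean. Markers give the 18S tier of the array. In Aass and Mgat4c the 3XHMT arrays stand alone and the Cbx3 arrays overlap the controls, whereas in the other 8 genes all 5 knockdown arrays lie on the same side of the 3 controls.

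Nanog, a homeobox transcription factor at the centre of the pluripotency network, had a pooled difference about as large as that of Aass, the largest among the called genes (3.06 and 2.98, or 2.95 and 3.05 with the 18S tier described further on as a block). The control arrays stood at 4.87, 5.10 and 5.41, the 3XHMT arrays at 8.15 and 7.72, and the Cbx3 arrays at 7.79, 9.28 and 8.25. All controls were below the median of all probe sets and all knockdown arrays were well above it, with no overlap. The pooled difference was 3.06 ± 0.31 (SE), an 8.35-fold rise, with a limma adjusted p of 0.0250. Each knockdown had a difference of similar size, 2.81 in 3XHMT (adjusted p = 0.0434) and 3.31 in Cbx3 (adjusted p = 0.0151), which share their control arrays. Taken alone, those comparisons called 42 genes (0.231%) and 81 genes (0.445%), and 275 genes (1.51%) differed between the knockdowns. For Nanog, the difference between the knockdowns was -0.50 (95% interval -1.39 to 0.38, adjusted p = 0.761), so a difference of up to 1.39 was not excluded by these arrays. The 250 bases before the Nanog start in RefSeq (GRCm38.p6, chr6:122707239-122707488, plus strand) are shown because they hold the paired site for an octamer-binding factor and Sox2 that is known from this promoter. Capitals mark that pair, found as TTTGCAT, any base, then ACAATG, and the run ends at the base before the start.
Nanog promoter: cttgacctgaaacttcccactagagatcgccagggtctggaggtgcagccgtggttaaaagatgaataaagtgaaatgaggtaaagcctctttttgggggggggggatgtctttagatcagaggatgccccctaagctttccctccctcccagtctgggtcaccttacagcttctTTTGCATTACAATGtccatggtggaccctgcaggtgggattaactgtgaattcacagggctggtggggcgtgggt
The pair lies 75 to 62 bases before the start. On both strands, the octamer core ATGCAAA is in 4.06% of 27025 RefSeq promoters of this length, the Sox site ACAATG in 11% and the pair, whose letters were written after this window was read, in 0.0037%. That last share counts the Nanog window itself, so it does not measure how rare the pair is. The factors that are known to use the pair did not pass the test. Pou5f1 differed by -0.05 and Sox2 by 0.31 (each with a limma adjusted p of 1.00), and the sign of each turned when 1 array was left out.

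Ptgs2 and Alox15 encode enzymes that act on arachidonic acid. Ptgs2 is the inducible cyclooxygenase that starts prostaglandin synthesis. Its signal was 7.24, 7.29 and 7.56 in control, 8.67 and 9.19 in 3XHMT, and 9.17, 9.15 and 9.46 in Cbx3. The lowest knockdown array was more than 1 unit above the highest control, and the knockdown groups lay close together. The pooled difference was 1.73 ± 0.15 (SE), a 3.33-fold rise (limma adjusted p = 0.0134), with 1.57 in 3XHMT (adjusted p = 0.0283) and 1.90 in Cbx3 (adjusted p = 0.00706). The other probe set of Ptgs2, dimmer at a control mean of 4.12, differed by 0.93. Ptgs2 kept its call under 6 of the 8 omissions of an array, the most of the 10 genes, and lost it without control 1 and without control 2.

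Alox15, a lipoxygenase, was at 5.46, 5.52 and 5.46 in control, 6.45 and 6.52 in 3XHMT, and 7.49, 8.04 and 8.50 in Cbx3. The 3 groups did not overlap at all, with Cbx3 highest. Pooled, Alox15 differed by 1.77 ± 0.20 (SE), a 3.40-fold rise (limma adjusted p = 0.0358). It was made up of 1.0 in 3XHMT, which did not pass alone (adjusted p = 0.332), and 2.53 in Cbx3 (adjusted p = 0.00706). The knockdowns differed by -1.53, 3XHMT minus Cbx3 (adjusted p = 0.0268).

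Defb1, a secreted antimicrobial beta-defensin of epithelia, was even across the controls at 4.60, 4.69 and 4.61. It reached 7.45 and 7.37 in 3XHMT and 5.68, 5.79 and 6.74 in Cbx3. Every knockdown array was above every control, and the 3XHMT arrays were above all Cbx3 arrays. Defb1 had a pooled difference of 2.11 ± 0.23 (SE), a 4.31-fold rise (limma adjusted p = 0.0282), with 2.78 in 3XHMT (adjusted p = 0.0135) and 1.44 in Cbx3 (adjusted p = 0.0636). The difference between the knockdowns was 1.34 (95% interval 0.70 to 1.98, adjusted p = 0.0641). The other probe set of Defb1 differed by 1.04 from control.

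A pair of neighbouring kallikrein genes on chromosome 7 rose together. Klk1b16 and Klk1b27 encode secreted serine proteases of the glandular kallikrein family, and with Klk1b24 they lie next to each other among the genes tested. The family is made of close copies, so a probe set of one gene may also read another, and the share read from each cannot be told from these arrays. Their RefSeq promoters (GRCm38.p6, plus strand; Klk1b16 at chr7:44137040-44137289 and Klk1b27 at chr7:44052040-44052289) are shown to let the copies be compared, each as the 250 bases before the start. Capitals mark the longest run that both share without a mismatch.
Klk1b16 promoter: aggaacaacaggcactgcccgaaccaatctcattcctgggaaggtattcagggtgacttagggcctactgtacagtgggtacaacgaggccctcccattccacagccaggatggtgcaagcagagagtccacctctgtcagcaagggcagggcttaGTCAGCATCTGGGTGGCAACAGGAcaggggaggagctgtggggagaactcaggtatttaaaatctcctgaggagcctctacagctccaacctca
Klk1b27 promoter: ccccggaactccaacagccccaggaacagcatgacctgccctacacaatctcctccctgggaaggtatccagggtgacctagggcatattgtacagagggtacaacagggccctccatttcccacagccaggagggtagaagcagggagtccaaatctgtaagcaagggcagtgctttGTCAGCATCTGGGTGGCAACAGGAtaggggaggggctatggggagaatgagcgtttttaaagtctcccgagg
Aligned, the windows matched at 196 of 273 columns (71.8%), and the shared run is 24 bases long. They hold 2 and 3 CG pairs.

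Klk1b16 was at 4.57, 5.0 and 5.06 in control, 6.24 and 6.60 in 3XHMT, and 5.92, 6.02 and 6.29 in Cbx3. The controls lay below all knockdown arrays, and the knockdown groups overlapped each other. The pooled difference was 1.37 ± 0.16 (SE), a 2.59-fold rise (limma adjusted p = 0.0358), with 1.54 in 3XHMT (adjusted p = 0.0336) and 1.20 in Cbx3 (adjusted p = 0.0368). Klk1b27 was at 5.70, 5.75 and 6.11 in control, 7.71 and 7.64 in 3XHMT, and 6.25, 6.55 and 6.53 in Cbx3. Here the Cbx3 arrays lay only just above the controls, while the 3XHMT arrays lay more than 1 unit above every Cbx3 array. For Klk1b27 the pooled value was 1.20 ± 0.13 (SE), a 2.30-fold rise (limma adjusted p = 0.0282), with 1.82 in 3XHMT (adjusted p = 0.00716) and 0.59 in Cbx3 (adjusted p = 0.157). The knockdowns differed by 1.23 for Klk1b27 (adjusted p = 0.0141) and by 0.34 for Klk1b16 (95% interval -0.11 to 0.79, adjusted p = 0.629). Klk1b24 had a pooled difference of 0.63 (limma adjusted p = 0.360), with all knockdown arrays above the controls. The Klk1b16 call was lost under each of the 8 omissions of an array, with adjusted p up to 0.152 and differences from 1.22 to 1.46.

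Aass and Mgat4c passed the pooled test through the 3XHMT arrays. Aass encodes a mitochondrial enzyme of lysine breakdown. It was at 5.77, 4.98 and 5.64 in control, 11.29 and 10.20 in 3XHMT, and 6.43, 5.69 and 6.26 in Cbx3. The 3XHMT arrays were far above all others, and a Cbx3 array lay within the control range. The pooled difference of 2.98 ± 0.30 (SE; limma adjusted p = 0.0250) was the mean of 5.28 in 3XHMT, a 39.0-fold rise (adjusted p = 0.00308), and 0.67 in Cbx3 (adjusted p = 0.605). Mgat4c, a glycosyltransferase gene, was at 3.50, 3.72 and 3.88 in control, 6.30 and 6.48 in 3XHMT, and 3.83, 3.68 and 3.79 in Cbx3. The Cbx3 arrays lay inside the control range. Its pooled difference was 1.38 (limma adjusted p = 0.0131), from 2.69 in 3XHMT (adjusted p = 0.000671) and 0.07 in Cbx3 (adjusted p = 0.978). For both genes, the shared sign rests on a Cbx3 difference that did not pass.

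Tbx18, a T-box transcription factor of mesenchymal and epicardial progenitors, was the stronger of the falls. It was at 7.73, 7.57 and 7.69 in control, 5.68 and 5.69 in 3XHMT, and 6.70, 6.15 and 6.29 in Cbx3. The groups did not overlap, with 3XHMT lowest. Its signal fell by 1.63 ± 0.14 (SE) on the log2 scale in the pooled comparison, 3.10-fold lower (limma adjusted p = 0.0131), with -1.98 in 3XHMT (adjusted p = 0.00716) and -1.28 in Cbx3 (adjusted p = 0.0208). The knockdowns differed by -0.70 (95% interval -1.09 to -0.32, adjusted p = 0.100). The RefSeq promoter of Tbx18 (GRCm38.p6, chr9:87731261-87731510, minus strand, written 5′ to 3′) is shown beside that of Nanog because it differs in CG pairs, which the capitals mark.
Tbx18 promoter: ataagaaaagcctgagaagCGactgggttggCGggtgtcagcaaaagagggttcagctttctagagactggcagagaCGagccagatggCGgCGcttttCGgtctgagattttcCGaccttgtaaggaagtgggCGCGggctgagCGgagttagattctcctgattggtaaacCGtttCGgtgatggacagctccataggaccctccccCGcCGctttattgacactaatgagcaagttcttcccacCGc
It holds 15 CG pairs in 250 bases, against 3 in the window of Nanog. This contrast does not hold for every rise, since the window of Ptgs2 holds 13.

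Ereg encodes epiregulin, a ligand of the EGF receptor family, and is also a target of MAPK signalling. It was dim, at 5.12, 4.98 and 5.10 in control, 4.28 and 4.59 in 3XHMT, and 3.94, 3.93 and 3.87 in Cbx3. The groups did not overlap, with Cbx3 lowest. Its signal fell by 0.89 ± 0.10 (SE) on the log2 scale, 1.85-fold lower (limma adjusted p = 0.0358), with -0.63 in 3XHMT (adjusted p = 0.176) and -1.15 in Cbx3 (adjusted p = 0.0123). All 8 omissions of an array left Ereg outside the threshold, with adjusted p up to 0.171 and differences from -0.97 to -0.81.

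The arrays differed in a way that the groups do not explain. The middle control probe set for 18S ribosomal RNA divided them at its widest gaps into 3 sets, called 18S tiers here: control 3, 3XHMT 2 and Cbx3 3 (9.98 to 10.17), control 1 and Cbx3 1 (11.22 and 11.50), and control 2, 3XHMT 1 and Cbx3 2 (12.57 to 12.82). The leading principal component, with 41.5% of the variance, set the low tier at 40.80 to 54.08 and the other arrays at -39.02 to -10.75. No tier holds arrays of 1 group only, so the tier could be fitted as a block, which leaves 3 residual degrees of freedom in place of 5. What the tiers are is not given by the labels. In the control and Cbx3 groups the tier goes with the replicate number (1 middle, 2 high, 3 low). The 3XHMT arrays break this match, with 3XHMT 1 in the high tier and 3XHMT 2 in the low tier. The 3′ minus 5′ difference of the actin control probe sets, a measure of RNA integrity and priming, was 0.60 on control 3 and 0.17 to 0.28 on the other arrays.

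With the tier as a block, 267 genes passed (1.47%), 126 higher (0.693%) and 141 lower (0.775%), among them all 10 genes above. Of the 267, 241 had the same sign in both knockdowns (1.32%), with 109 higher (0.599%) and 132 lower (0.726%), and 26 had opposite signs. The pooled test itself favours a shared sign, so this split is not a result about the knockdowns. Among the 241 genes, 118 also had no overlap between knockdown and control arrays (0.649%). The median pooled difference was 0.81 among the 109 higher genes and -0.71 among the 132 lower genes, with 33 and 27 of them past 1 in size. In 123 of the 241, the knockdowns also differed from each other at a limma adjusted p under 0.05 (9.12% of all genes tested did). Both tests use the same spread of each gene. Choosing genes by the pooled test therefore also favours this one, and the higher share is not a result.

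**Figure D2:**
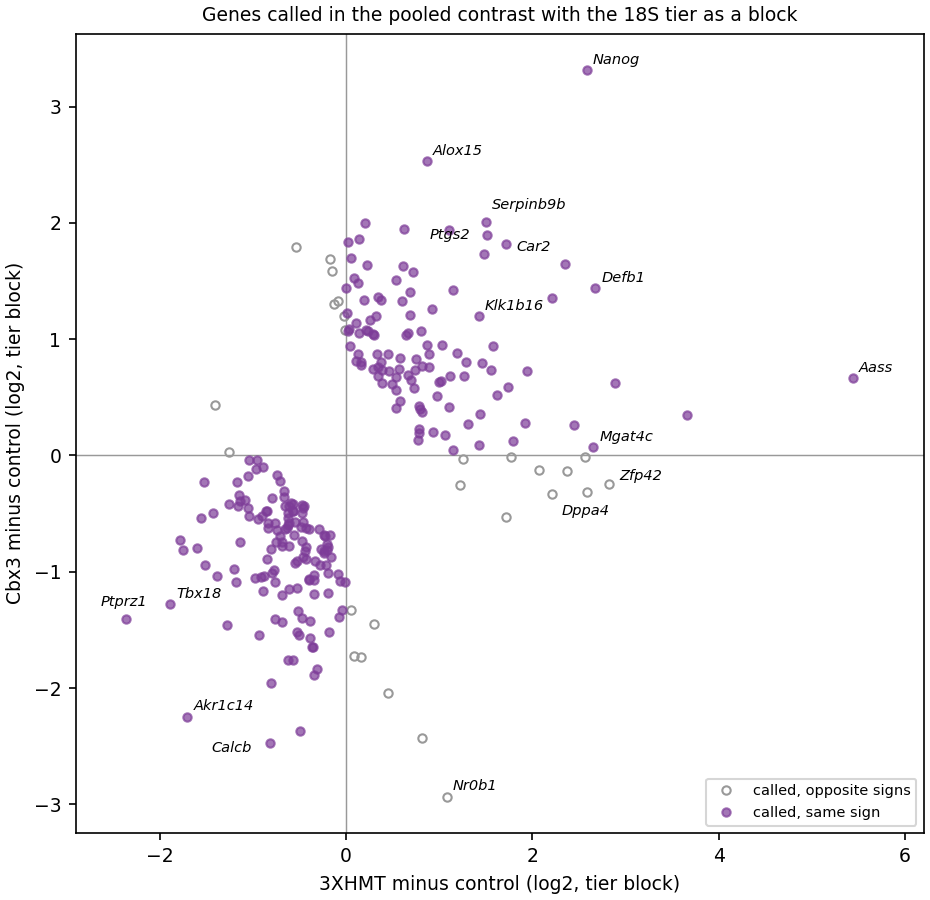
Difference from control in 3XHMT (horizontal axis) and in Cbx3 (vertical axis), in log2 units, for the 267 genes called in the pooled comparison with the 18S tier as a block. Filled points are the 241 genes with the same sign and open points the 26 with opposite signs; both axes use the same control arrays and all points passed the pooled test, so the shape of the cloud is set by the selection. Nanog, Defb1 and Car2 lie far from both axes, while Aass and Mgat4c lie close to the horizontal one.

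Within a tier, each knockdown array can be set against the control array of its own tier. For Nanog, these differences were 3.05 and 2.31 in 3XHMT (high and low tier) and 4.18, 2.92 and 2.84 in Cbx3 (high, middle and low). For Ptgs2 they ran from 1.38 to 1.93, and for Tbx18 from -2.0 to -1.02. In the 8 called genes without overlap the shared sign of the 5 differences is fixed by that choice of genes, so only their sizes are of use.

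**Figure D3:**
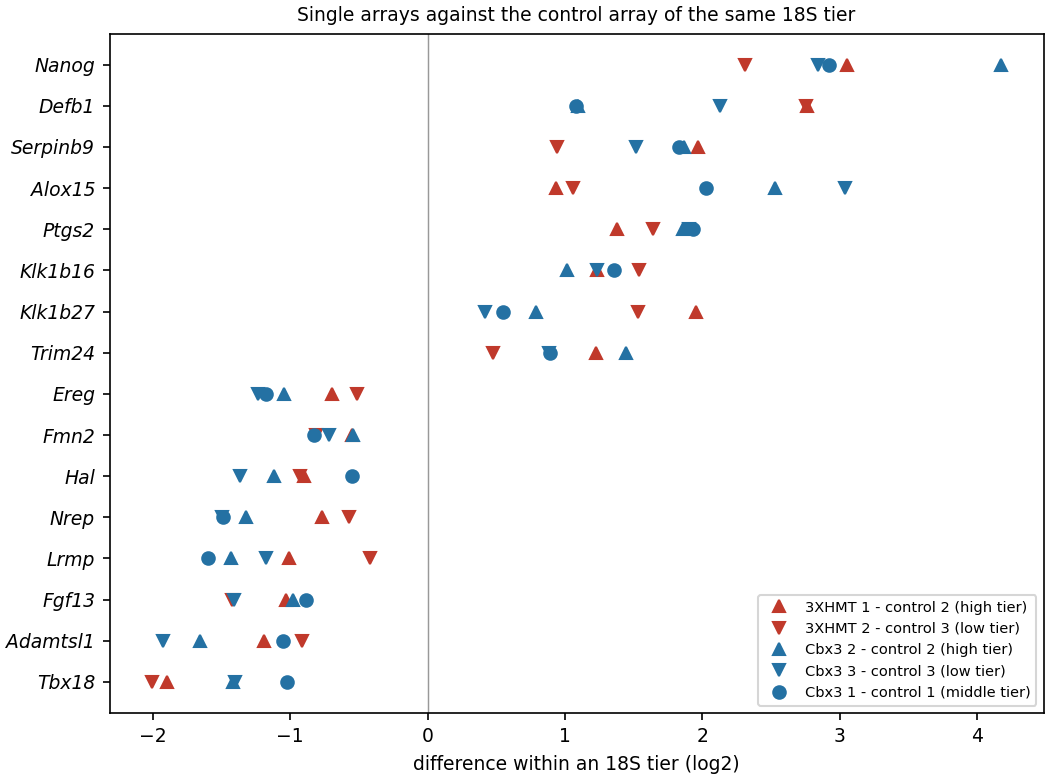
Log2 difference of each knockdown array from the control array of the same 18S tier, for the 8 called genes without overlap and the 8 next genes by p. The genes were chosen for arrays without overlap, which puts all 5 points on the same side of 0; in size, the 3XHMT and Cbx3 points are apart in Klk1b27, Alox15 and Tbx18 and mixed in Klk1b16.

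Beyond the 10 calls, the 2 rises and 6 falls with the lowest p among the genes without overlap were followed. Each missed the threshold in the pooled comparison (limma adjusted p from 0.0628 to 0.0947) and passed with the tier as a block (0.00202 to 0.0192). Serpinb9, an intracellular inhibitor of granzyme B, was at 6.44, 6.83 and 7.17 in control, 8.80 and 8.11 in 3XHMT, and 8.27, 8.69 and 8.69 in Cbx3, a pooled difference of 1.69 ± 0.22 (SE). The groups were apart by almost 1 unit, and the other probe set of Serpinb9 differed by 1.51. Trim24, a bromodomain protein that binds histone H3 and interacts with HP1, was at 9.90, 9.55 and 10.07 in control, 10.78 and 10.54 in 3XHMT, and 10.79, 10.996 and 10.95 in Cbx3, a pooled difference of 0.95 ± 0.14 (SE). It was the only measured member of the list of HP1 proteins and other H3K9 readers, 22 genes, that passed with the tier block (adjusted p = 0.0160).

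The 6 falls were Fgf13 (-1.19), an intracellular modulator of sodium channels; Adamtsl1 (-1.29), a matrix protein; Lrmp (-1.13), a membrane protein of the endoplasmic reticulum; Nrep (-1.0); Hal (-0.91), the enzyme that opens histidine breakdown; and Fmn2 (-0.72), an actin nucleator. Fmn2 was the tightest of these, at 10.63, 10.29 and 10.58 in control, 9.74 and 9.76 in 3XHMT, and 9.80, 9.75 and 9.86 in Cbx3. Its 5 knockdown arrays lay within 0.2 units of each other, below every control, and the next probe set of Fmn2 differed by -0.78. For Fgf13 the direction depends on the probe set, since the other, at a control mean of 4.33, differed by 0.16.

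Other genes did not pass in the pooled comparison and passed with the tier as a block; these were named after their values were seen. Car2, a cytosolic carbonic anhydrase, was at 8.38, 9.47 and 10.60 in control, 11.18 and 12.08 in 3XHMT, and 10.68, 11.14 and 12.07 in Cbx3. The lowest knockdown array was just above the highest control. The spread within each group followed the tier, and equally the replicate number. The pooled difference was 1.98 (limma adjusted p = 0.387, and 0.00122 with the tier block). Serpinb9b, a close copy of Serpinb9 and its neighbour on chromosome 13, differed by 1.88 (0.157 and 0.00899), from control arrays at 10.16, 10.41 and 11.64 to knockdown arrays between 12.33 and 13.08. Because the copies are alike, how much of the 2 signals is shared was not tested. Zfp982 and Zfp979, neighbouring zinc finger genes on chromosome 4, differed by 1.85 and 0.95 (0.0140 and 0.0203 with the tier block). For Zfp982 this is a probe set marked as shared between transcripts, and its other probe sets differed by 0.22 and 0.30. Popdc3, a membrane protein of muscle, differed by 1.61, Tspan8, a tetraspanin, by 1.10, Lrp11 by 1.07, and Rasgrf2, an exchange factor for Ras, by 1.04 (-0.089 by its next probe set). These 4 passed with the tier block at adjusted p from 0.00982 to 0.0315.

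Among the falls of this kind, Akr1c14, an aldo-keto reductase that acts on steroids, was at 9.99, 9.41 and 10.54 in control, 7.62 and 8.80 in 3XHMT, and 7.99, 7.11 and 8.11 in Cbx3. All knockdown arrays were below all controls. Its pooled difference was -2.01 (limma adjusted p = 0.172, and 0.000159 with the tier block), whereas its relative Akr1c18, a hydroxysteroid dehydrogenase that inactivates progesterone, had 3.88 in 3XHMT (adjusted p = 0.0627) and 0.35 in Cbx3 (adjusted p = 0.970). Ptprz1, a receptor tyrosine phosphatase of neural progenitors, was at 7.56, 8.42 and 8.80 in control, 5.95 and 6.40 in 3XHMT, and 6.42, 6.96 and 7.18 in Cbx3, a pooled difference of -1.74 (0.137, and 0.000185 with the block). Its next probe set differed by -1.60. Calcb, the calcitonin gene-related peptide beta, differed by -1.79, Sptssb, a subunit of serine palmitoyltransferase, by -1.56, B3galnt1, a glycosyltransferase, by -1.21, and Igfbp3, a carrier of insulin-like growth factors, by -1.14. Klhl13 and Stk26 each differed by -1.0 and Reep1 by -0.93. Each passed with the tier block (adjusted p from 0.00564 to 0.0408). Without control 1 the pooled difference was -1.04 for Sptssb and -0.76 for B3galnt1, and without control 3 it was -0.72 for Igfbp3.

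Gene lists for the processes these factors may touch were then counted over all members measured, without a set test. The lists were written with earlier results of these data known, so a called member is no result about its list. Over all genes, 53.21% of the pooled differences were above 0, with a median of 0.01. Of 50 pluripotency genes, 35 were higher and 15 lower, with a median of 0.08 in the pooled comparison, 0.14 in 3XHMT and -0.01 in Cbx3. Nanog was the 1 call. With the tier block, Nanog, Zfp42, Dppa4 and Gbx2 passed higher and Nr0b1 and Nr5a2 lower. Of these 6 genes, Nanog and Gbx2 had the same sign in both groups among the rises, and Nr5a2 among the falls. Gbx2, a homeobox factor of the ground state, was 1.63 higher in 3XHMT and 0.36 higher in Cbx3. Nr5a2, an orphan nuclear receptor that activates Pou5f1, was at -0.66 and -1.09, with no overlap between control arrays (9.06 to 9.38) and knockdown arrays (7.86 to 8.78).

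In the other 3 pluripotency genes the pooled value hid opposite signs. Zfp42, a zinc finger marker of naive cells, was at 6.59, 7.53 and 6.97 in control, 10.73 and 9.52 in 3XHMT, and 6.15, 7.37 and 6.83 in Cbx3. It stood apart in 3XHMT alone, with 3.09 there (limma adjusted p = 0.0452) and -0.25 in Cbx3. Dppa4, a DNA-binding protein of early embryos, had 2.56 (adjusted p = 0.0135) and -0.32. Nr0b1, an orphan receptor that binds Pou5f1 and Nanog, had 0.66 and -2.93, so its pooled difference of -1.14 describes neither group. Klf4 differed by 0.11 in the pooled comparison (adjusted p = 1.00).

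**Figure D4:**
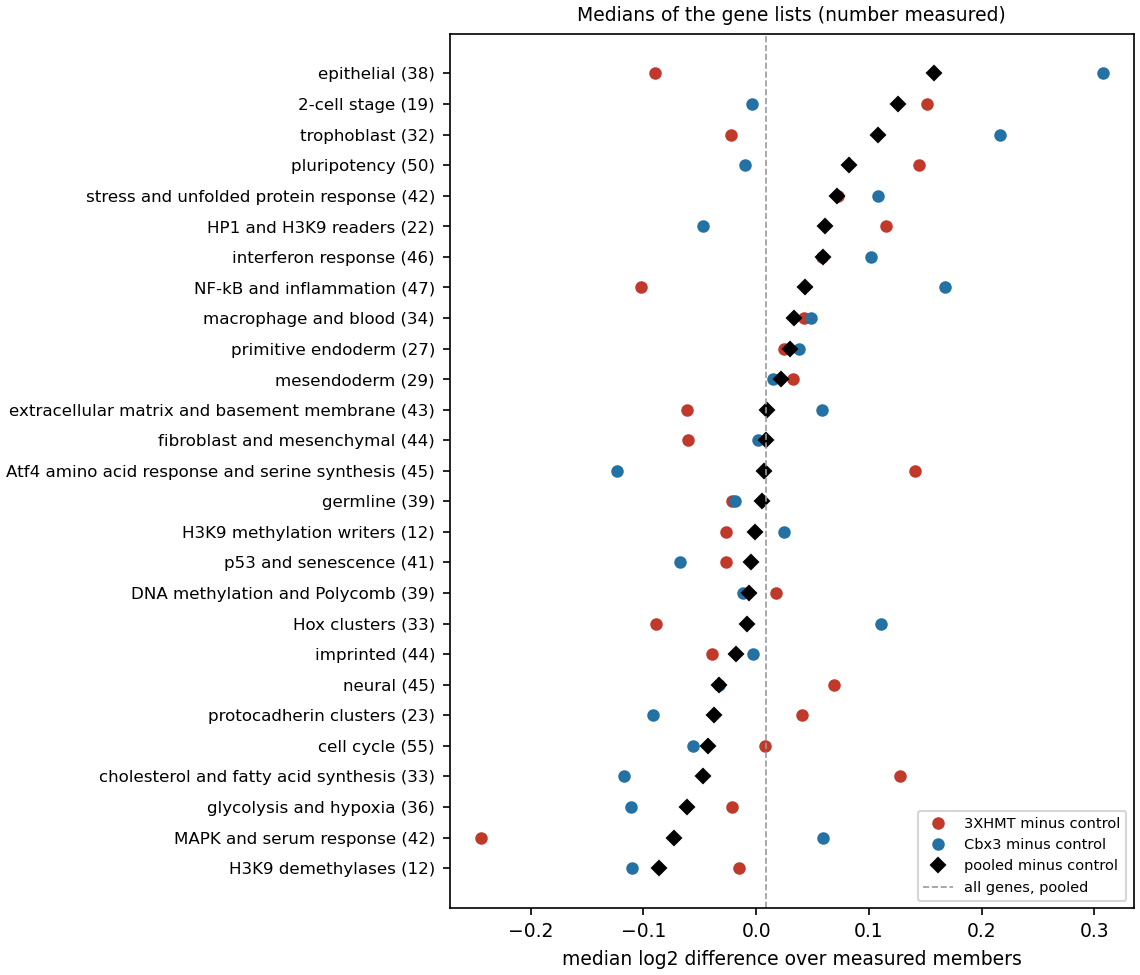
Median log2 difference from control over the measured members of each gene list, for the pooled comparison (diamonds) and for each knockdown (circles), with the number measured in brackets and the median of all genes as a dashed line. The pooled medians lie between -0.09 and 0.16, and the single knockdowns stand on opposite sides of 0 for, among others, epithelial, MAPK and serum response, and cholesterol and fatty acid synthesis genes.

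Of 47 NF-kB and inflammation genes, 30 were higher and 17 lower, with a median of 0.04 (3XHMT -0.10, Cbx3 0.17). Ptgs2 and Alox15 were the 2 calls. With the tier block Tlr2, a receptor for bacterial lipoproteins, and Chil1, a chitinase-like protein, also passed higher, and Osmr, a receptor for oncostatin M, passed lower. Tlr2 was at 6.38, 5.72 and 6.66 in control, 7.11 and 6.73 in 3XHMT, and 7.91, 8.05 and 8.64 in Cbx3, so that the 3XHMT arrays lay just above the controls and the Cbx3 arrays well above them. Chil1 had 0.20 in 3XHMT and 1.83 in Cbx3 (limma adjusted p = 0.0319). Of 46 interferon response genes, 31 were higher, with a median of 0.06 and 0 limma calls in either fit. At an unadjusted limma p under 0.05, 2 of the 46 were counted, beside 5.56% of all genes.

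Of 42 MAPK and serum response genes, 29 were lower and 13 higher, with a pooled median of -0.07. The median was -0.24 in 3XHMT and 0.06 in Cbx3, so the balance was not shared. Ereg was the 1 call, and Egr1, an immediate early transcription factor, also passed lower with the tier block. Egr1 had -1.20 in 3XHMT and 0.03 in Cbx3, and its pooled difference of -0.58 was -0.22 without control 2 and -0.92 without control 3. Of 42 stress and unfolded protein response genes, 32 were higher, with a median of 0.07 in the pooled comparison, 0.07 in 3XHMT and 0.11 in Cbx3. There Hspa1b, an inducible chaperone (0.95), and Hmox1, a heme oxygenase (0.99), passed with the tier block. Single arrays moved both pooled values: Hspa1b to 0.58 without 3XHMT 1, and Hmox1 to 0.51 without control 1 and 1.55 without control 2.

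Lists of cell identity gave few shared calls. Of 38 epithelial genes, 28 were higher, but the median was -0.09 in 3XHMT and 0.31 in Cbx3. Grhl3, a transcription factor of surface epithelium, was the 1 gene that passed with the tier block (0.36 in 3XHMT and 1.05 in Cbx3). The summed signal of the list on each array was 21190 to 24540 in Cbx3, above 14300 to 18710 in control, and 14850 to 15670 in 3XHMT. Of 44 fibroblast and mesenchymal genes, 22 were higher and 22 lower, with a median of 0.01. Tbx18 was called, and Cdh2 passed with the tier block, from 9.56, 9.54 and 9.88 in control to 9.03 and 9.33 in 3XHMT and 8.98, 8.75 and 8.64 in Cbx3. Every Cdh2 knockdown array was below every control. Of 43 genes of extracellular matrix and basement membrane, Fbln2 and Edil3 passed higher and Nid1 lower with the tier block, with a list median of 0.01; the next probe set of Fbln2 differed by -0.019.

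Of 45 neural genes, 26 were lower (median -0.03), and Ncam1, a neural adhesion molecule, and Elavl2, an RNA-binding protein of neurons, passed lower with the tier block. Ncam1 was at 8.32, 7.92 and 8.22 in control and between 6.82 and 7.63 on the knockdown arrays, with -0.93 in 3XHMT and -0.98 in Cbx3. Elavl2 had 0.29 in 3XHMT and -2.05 in Cbx3, so its fall was not shared. The summed signal of the neural list was 7340 to 8959 in Cbx3, below 12350 to 15390 in control, and 13330 to 14870 in 3XHMT. Of 32 trophoblast genes, 23 were higher (median 0.11), but the median was -0.02 in 3XHMT and 0.22 in Cbx3. Their summed signal was 13090 to 14980 in Cbx3, above 8705 to 9776 in control, and 8766 to 9180 in 3XHMT. Each such list sum is of linear signals and so leans on bright genes. Among them here is Cited1, at a log2 mean of 9.81 in control and 11.81 in Cbx3. Krt7, Krt8 and Krt18 are in both the trophoblast and the epithelial list, so these sums are not separate observations. With the tier block Procr, a receptor for protein C, and Cited1, a transcriptional coactivator, passed. Procr was at 5.0, 4.69 and 4.57 in control, and its knockdown arrays lay between 5.50 and 5.79, all above it. Cited1 had 0.13 in 3XHMT and 2.00 in Cbx3, and was also the 1 such gene among 27 of primitive endoderm (median 0.03). Of 34 macrophage and blood genes (median 0.03), Cd34 passed higher and Laptm5 lower with the tier block. Cd34 stayed below the median of all probe sets on every array, and another probe set of Laptm5 turned the sign. The part of other cell types in these results was not tested.

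Lists of growth and metabolism held 1 gene called in the pooled comparison. Of 41 p53 and senescence genes (median 0.00), Pmaip1, Btg2 and Plk3 passed higher and Ei24 and Igfbp3 lower with the tier block. The rises were uneven between 3XHMT and Cbx3, with 0.85 and 0.20 for Pmaip1, 0.33 and 0.74 for Btg2, and 0.11 and 0.78 for Plk3. Igfbp3 had -1.24 and -1.04. Ei24, a membrane protein induced by p53, had -0.58 in 3XHMT and -0.57 in Cbx3, with controls at 11.46 to 11.80 and knockdown arrays at 10.88 to 11.17. Of 45 genes of the Atf4 amino acid response and serine synthesis (median 0.01), Aass was called, and Psat1, Slc7a11 and Slc7a3 passed lower with the tier block. Slc7a11, the cystine carrier, had -0.34 in 3XHMT and -1.89 in Cbx3, and Slc7a3, a carrier of basic amino acids, had opposite signs, 0.06 and -1.45. Neither fit called any of 55 cell cycle genes (23 higher, median -0.04) or 33 genes of cholesterol and fatty acid synthesis (13 higher, median -0.05). The same held for 36 genes of glycolysis and hypoxia (12 higher, median -0.06). At an unadjusted limma p under 0.05 each of these lists held 1 gene, beside 5.56% of all genes.

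Lists of germline, 2-cell stage, Hox, mesendoderm, imprinted and clustered protocadherin genes held no gene called in the pooled comparison. Of 39 germline genes 21 were higher (median 0.00), of 19 genes of the 2-cell stage 15 were higher (median 0.13, with 0.15 in 3XHMT and -0.0038 in Cbx3), of 33 Hox genes 16 were higher (median -0.01) and of 29 mesendoderm genes 18 were higher (median 0.02), with 0 limma calls in either fit. At an unadjusted limma p under 0.05, 1 germline gene, 3 genes of the 2-cell stage, 2 Hox genes and 0 mesendoderm genes were counted, beside 5.56% of all genes. Of 44 imprinted genes (median -0.02), Asb4 passed higher and Ppp1r9a lower with the tier block, and of 23 clustered protocadherins (median -0.04) Pcdhb17 passed lower. Pcdhb17 had 0.10 in 3XHMT and -1.73 in Cbx3 (limma adjusted p = 0.00706). Among the chromatin genes, of 12 writers of H3K9 methylation and their cofactors 6 were higher (median 0.00). This list holds the targets Ehmt1, Ehmt2 and Setdb1, each lower in the pooled comparison, so the design in part sets its values. Of 12 H3K9 demethylases 4 were higher (median -0.09), and of 39 genes of DNA methylation and Polycomb 19 were higher (median -0.01). These lists had 0 limma calls in either fit and 2, 2 and 3 genes at an unadjusted p under 0.05. Setdb1 is among the 2 of the writers list.

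The targets themselves belong to different groups, so the pooled comparison averages each loss with a group that was not targeted. The 3 bright Cbx3 probe sets, which the annotation also assigns to the pseudogene Cbx3-ps5, stood at 42.8%, 37.9% and 43.9% of control in the Cbx3 arrays (limma adjusted p over all probe sets of 0.0453, 0.0465 and 0.0525). In 3XHMT, the brightest probe sets of Setdb1, Ehmt2 and Ehmt1 stood at 63.2%, 66.8% and 79.6% of control. None passed (adjusted p over genes of 0.339, 1.00 and 1.00), and Setdb1 alone passed with the tier block (0.0295, against 0.196 and 0.131). Pooled, they differed by -0.37, -0.15 and -0.26.

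Genes that moved together were in part neighbours. Of the 241 genes of the tier fit with the same sign, 240 could be placed on the RefSeq gene order of GRCm38.p6, and 8 adjacent pairs moved in 1 direction, which is 0.0441% of all adjacent pairs of tested genes. The rises were Serpinb9 with Serpinb9b, Zfp982 with Zfp979, Klk1b27 with Klk1b16, Klk1b16 with Klk1b24, and Sftpd with 4930503E14Rik. The falls were Osmr with Lifr, which encode receptor subunits of related cytokines, Fgl2 with Fam185a, and Clec2d with 2310001H17Rik. The Serpinb9, Klk1b and Zfp pairs are related sequences, for which shared probe reading was not tested.

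Promoter content was described for the genes with a RefSeq entry, over 300 bases from 250 before to 50 after the start. Of the 10 called genes 7 had an entry, with a median ratio of observed to expected CG pairs of 0.19. These called genes mix rises with the fall Tbx18 (0.755), and among the rises Ptgs2 had 0.617. The ratio had a median of 0.46 in 83 of the 109 genes higher with the tier block, 0.64 in 103 of the 132 lower genes and 0.67 in 14452 of all 18193 genes tested. A ratio under 0.4 was found in 44.58%, 26.21% and 29.26% of them, so CG-poor promoters were more frequent among the rises than among all genes, as a description without a test.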

How the data were processed

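The authors deposited a table of log2 signals, 45101 probe sets by 8 arrays, computed with RMA per the submitters' processing notes (version and settings not given in the sources used here). RMA equalises the distribution between arrays, so a shift shared by most genes is removed, and array medians were 5.87 to 5.90. The number of arrays limits the precision. The platform annotation gave 1 symbol to 34945 probe sets, several to 932 and none listed to 9160, and 64 control probe sets were left out. Of the named probe sets, 34741 matched the RefSeq gene table (GRCm38.p6), and 0 symbols changed. Each gene took its brightest such probe set, which gave 18193 genes, 9010 of them with more than 1.

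Group means were fitted with limma 3.58.1 in R 4.3.3 (lmFit, contrasts.fit and eBayes, two-sided, 5 residual degrees of freedom, tested on simulated data). The pooled contrast was the mean of both knockdown means minus control, with Benjamini-Hochberg adjustment over all genes and a threshold of 0.05. All adjusted p-values of genes come from limma; single-knockdown comparisons share the control arrays. Alternatives were the 18S tier or replicate number as a block, both knockdowns merged into a group with equal weight per array, and each array left out. Further ones were other probe set choices, a filter on dim probe sets, 2 further scalings and a moderated prior with trend.

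The comparison, the 27 lists (974 of 1081 entries measured, 931 different genes) and the tier block were chosen with earlier results of these data known. Named genes were the targets, calls without overlap, the next by p up to 8 a direction, list members with the lowest p and a set of marker genes; Aass and Mgat4c complete the calls. Names of other list members that passed with the tier block, and of neighbours, spell out counts.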

Additional observations from a re-analysis of the deposited data

Results flagged for a closer look

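For 16 of the 79 genes examined, the knockdowns differed at a limma adjusted p under 0.05, so the pooled value averages unequal differences. Over all genes tested, 275 (1.51%) did. The 79 were chosen largely by low p in the pooled comparison or with the tier block, which favours this test. The higher share is therefore not a result. Of the called genes, 3XHMT minus Cbx3 was 4.62 for Aass (adjusted p = 0.00304), 2.62 for Mgat4c (0.000829), 1.23 for Klk1b27 (0.0141) and -1.53 for Alox15 (0.0268). Among pluripotency genes it was 3.60 for Nr0b1 (0.0244), 3.34 for Zfp42 (0.0151) and 2.88 for Dppa4 (0.00546). The steroid enzyme gene Akr1c18 had 3.53 (0.0324).

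Signal was higher in 3XHMT than in Cbx3 for the neural gene Elavl2 by 2.34 (limma adjusted p = 0.0100), Pcdhb17 by 1.83 (0.00397), Nid1, a basement membrane protein, by 1.61 (0.0175), and Slc7a11 by 1.55 (0.0404). It was lower for Cited1, with -1.87 (0.00818), Chil1, with -1.63 (0.0355), Edil3, with -1.53 (0.0313), and Ppp1r9a, with -0.97 (0.0175).

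Cd34 on 3XHMT 1 stood at 4.89, apart from the other 4 knockdown arrays at 4.70 to 4.75; chance sets an array apart in about 1 of 20 groups.

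Among 10092 probe sets without a single symbol, 1 passed in a fit of all probe sets, which called 4 in all. This probe set had a pooled difference of 4.03 (limma adjusted p = 0.0378). It was at 3.85, 3.61 and 4.61 in control, 9.69 and 9.25 in 3XHMT, and 6.29, 6.15 and 7.49 in Cbx3, with no overlap between the groups. No gene is named for it in the annotation used.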

How the results depend on the processing

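The pooled comparison called 10 genes, all with the same sign in both knockdowns. The 18S tier block called 267 (241 with the same sign), and the 10 calls were among them. With the replicate block the counts were 70 and 65, again with all 10. Replicate numbers do not pair all arrays: deviations of same-numbered arrays correlated by 0.57 to 0.74 between control and Cbx3, but by 0.11 and -0.56 between control and 3XHMT. Equal weight per knockdown array left 2 calls (2 with the same sign). That fit merged all 5 knockdown arrays into 1 group, with 6 residual degrees of freedom. Differences between the knockdowns then counted as spread, so more than the weights changed. The filter on dim probe sets left 6 calls (6), from 11524 genes tested, which held 6 of the 10. Leaving out single arrays gave 0 to 11 calls (0 to 11 with the same sign): 0 without control 1 or control 2, 1 without 3XHMT 1, 5 without 3XHMT 2 (4 with the same sign), 6 without control 3, 11 without Cbx3 1, 6 without Cbx3 2 and 5 without Cbx3 3. Each of the 10 genes kept its direction under all 8 omissions, with adjusted p up to 0.129 to 0.171. Without a 3XHMT array, the lone one is assumed to vary like the other groups. Other probe set choices, scalings and priors called 8 to 13.

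Directions that turned were those of Klf4 (-0.024 with the replicate block, -0.079 by the next probe set), Fgf13 (0.16), Rasgrf2 (-0.089) and Fbln2 (-0.019) by the next probe set, and Laptm5 (0.044) without probe sets marked as shared. Leaving out arrays moved Klf4 between -0.28 (without control 3) and 0.40, Ehmt2 between -0.42 and 0.041 (without control 1), Pou5f1 between -0.25 and 0.070 (without control 1; also above 0 without control 2), and Sox2 between -0.10 (without control 1; also below 0 without 3XHMT 1) and 0.78. The causes were not tested. Low signal limits the dim genes, where fold changes are compressed.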
